A study of Homo sapiens with 8 samples.

Results

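CRYAB, the small heat shock protein alpha-B crystallin, was examined with 9 genes of the heat shock response in A549 cells before and after dexamethasone. The 10 genes are CRYAB, HSPB1, HSPB8, HSPA1A, HSPA1B, HSPA8, DNAJB1, HSPH1, BAG3 and HSF1. They were listed by name, and every probe that the platform annotation gives to one of them was taken, which gave 10 of the 15550 genes with a symbol, on 11 of the 22011 probes in the authors' table. CRYAB had been picked by its large 24 h minus 0 h difference in these same arrays, and the other 9 to set beside it. The time differences of the 11 probes are therefore a description. Counts of calls are printed for them beside the share of all probes called, and support nothing.

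A549 is an established human lung adenocarcinoma line, and total RNA was read on Illumina BeadChips, on which a probe's brightness stands for the amount of its transcript. The hairpin shGLP was carried by the cells of all 8 arrays; it is directed against the histone H3 lysine 9 methyltransferase GLP (EHMT1). The medium lacked phenol red, and its serum had been stripped of hormones. Whether the line is 1 clone or a pool is not given in the sources used here. By the labels 4 arrays stand at 0 h and 4 from cells kept for 24 h in 100 nM dexamethasone, which activates the glucocorticoid receptor. The labels do not say whether the 0 h cells received vehicle. No array of cells without the hairpin and no 24 h array without hormone was analysed here, so hormone and 24 h of culture cannot be told apart. Whether the replicates came from separate cultures is not given in the sources used here, so the errors measure only the spread between these arrays. Slide 1 holds replicates 1 and 2 of both times and slide 2 holds replicates 3 and 4. In bulk RNA, fewer cells that express a gene and less of its RNA per cell cannot be told apart.

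Small heat shock proteins such as CRYAB, HSPB1 and HSPB8 bind unfolding proteins without using ATP and hold them for refolding. Refolding is done by HSP70 proteins, which are stimulated by J-domain partners and reset by nucleotide exchange factors. When unfolded proteins build up, the transcription factor HSF1 binds heat shock elements, arrays of the unit NGAAN in alternating orientation, and induces most of these genes together. CRYAB is abundant in lens, heart and skeletal muscle.

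Between 13897 and 14797 probes were detected per array at a detection p-value under 0.05, and median intensity ran from 137 to 273, lowest on 0 h replicate 1. On each array the authors' values correlated more with that array's values as normalized here (r = 0.998) than with any other array's (r at most 0.992). EHMT1 lay near background, at 5.39 ± 0.19 at 0 h, where 1 of 4 arrays detected it, and 5.75 ± 0.06 at 24 h (SD, n = 4 each), where all 4 did, so depletion cannot be read from it. Of 8 markers of A549 and epithelial cells, 7 were detected on all 8 arrays. All 11 heat shock probes passed the filter used for tests, detection on at least 4 of 8 arrays.

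CRYAB differed more between the times than any of the other 9 genes did. At 0 h replicates 1 to 4 read log2 5.63, 5.92, 7.03 and 5.14, against 9.58, 9.40, 10.58 and 8.90 after 24 h. The lowest 24 h array thus lay well above the highest 0 h array, and replicate 3 was the highest at both times. The mean went from 5.93 ± 0.80 to 9.62 ± 0.71 (SD, n = 4 arrays each), a log2 difference of 3.69 ± 0.42 (SE), or 12.9-fold. The labels' replicate numbers pair the arrays, and within the pairs the difference was 3.96, 3.47, 3.55 and 3.76. With the pair as a block its SE was 0.12. The spread among replicates was thus mostly a matter of level, shared by both times, and much less of the difference between them.

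The 0 h values of CRYAB lay close to background. Its deposited intensity was 104, 135, 294 and 123 at 0 h, with a standard error over beads of 34.2, 40.7, 116 and 29.4. Detection p-values there were 0.048, 0.0064, 0 and 0.15, so the probe was detected on 3 of 4 arrays. At 24 h the intensity was 604, 774, 2104 and 552, and the probe was detected on all 4. Without background correction the log2 difference was 2.42, so the size of the fold depends on how much of the 0 h signal is taken as background. The deposited intensities of the 2 times did not overlap either.

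**Figure D1:**
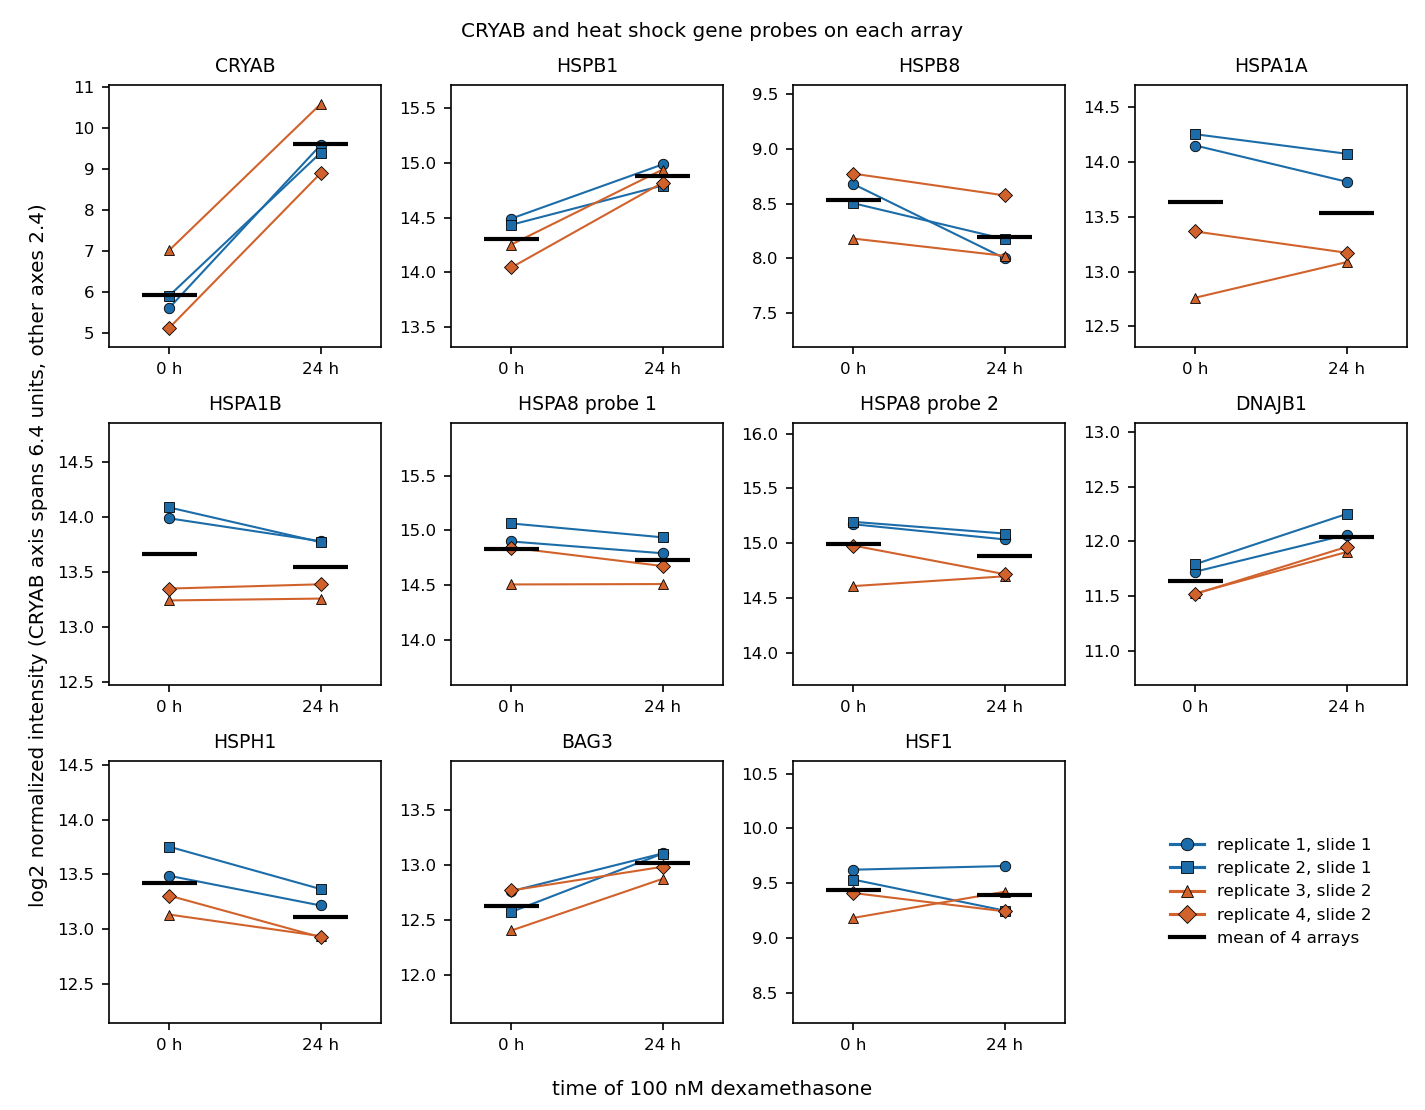
Each panel plots 1 probe's log2 normalized intensity on the 8 arrays, at 0 h and 24 h. Lines join arrays with the same replicate number, blue for slide 1 and orange for slide 2, and black bars are means of 4 arrays. The 4 CRYAB lines climb in parallel from 5.14 to 7.03 at 0 h up to 8.90 to 10.58 at 24 h, while HSPA1A and HSPA1B separate by slide.

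In the limma fit of 24 h against 0 h over all probes, 2 of the 11 fell under an adjusted p of 0.05, both higher. Of all 14533 tested probes 4.89% were called higher, 4.91% lower and 9.79% in either direction. With the replicate pair as a block 4 did, all higher, beside 8.32% of all called higher and 16.7% in either direction. The 24 h arrays lay above all 0 h arrays for 4 probes (CRYAB, HSPB1, DNAJB1 and BAG3) and below all 0 h arrays for 0, beside 8.55% and 8.39% of all tested probes (16.9% in either direction). Nothing is read from these counts, since the genes were chosen with this comparison known. With median scaling of the arrays BAG3 overlapped, with a highest 0 h array of 12.89 and a lowest 24 h array of 12.84, and 3 probes remained separate.

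HSPB1 (HSP27), which holds unfolding proteins and also acts on actin filaments, was the other small chaperone with separate groups. Replicates 1 to 4 read log2 14.49, 14.43, 14.25 and 14.04 before the hormone and 14.99, 14.79, 14.94 and 14.82 after it. Every 24 h array was above every 0 h array. The difference was 0.58 ± 0.14 (SE), 1.49-fold, and the pairs differed by 0.36 to 0.77. HSPB8 (HSP22), which works with BAG3 to send damaged proteins to autophagy, read 8.68, 8.50, 8.18 and 8.77 at 0 h and 8.001, 8.18, 8.02 and 8.57 at 24 h. Its groups overlapped, though all 4 pairs had the lower value at 24 h, and the difference was -0.34 ± 0.18.

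Of the 7 other small heat shock genes listed beside them, 6 are on the array and only HSPB2 and HSPB6 were detected widely enough to be tested. HSPB2 lies next to CRYAB in the RefSeq gene table of GRCh38.p14, and it differed by -0.11 ± 0.20 (limma adjusted p = 0.809) near background, at 5.77 ± 0.30 and 5.66 ± 0.34 (SD, n = 4 each). On the other side the nearest gene with a probe is CFAP68, a protein of cilia and flagella, which differed by 0.19 ± 0.15 (limma adjusted p = 0.519). RPL37AP8 and HSPB2-C11orf52 are the other neighbours within 2 places and have no probe named for them in the annotation. HSPB6 differed by -0.46 ± 0.15 and did not pass (limma adjusted p = 0.0774), and passed with the replicate block (limma adjusted p = 0.0475). HSPB3, HSPB7, HSPB9 and CRYAA, the lens partner of CRYAB, were each detected on at most 1 of 8 arrays.

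**Figure D2:**
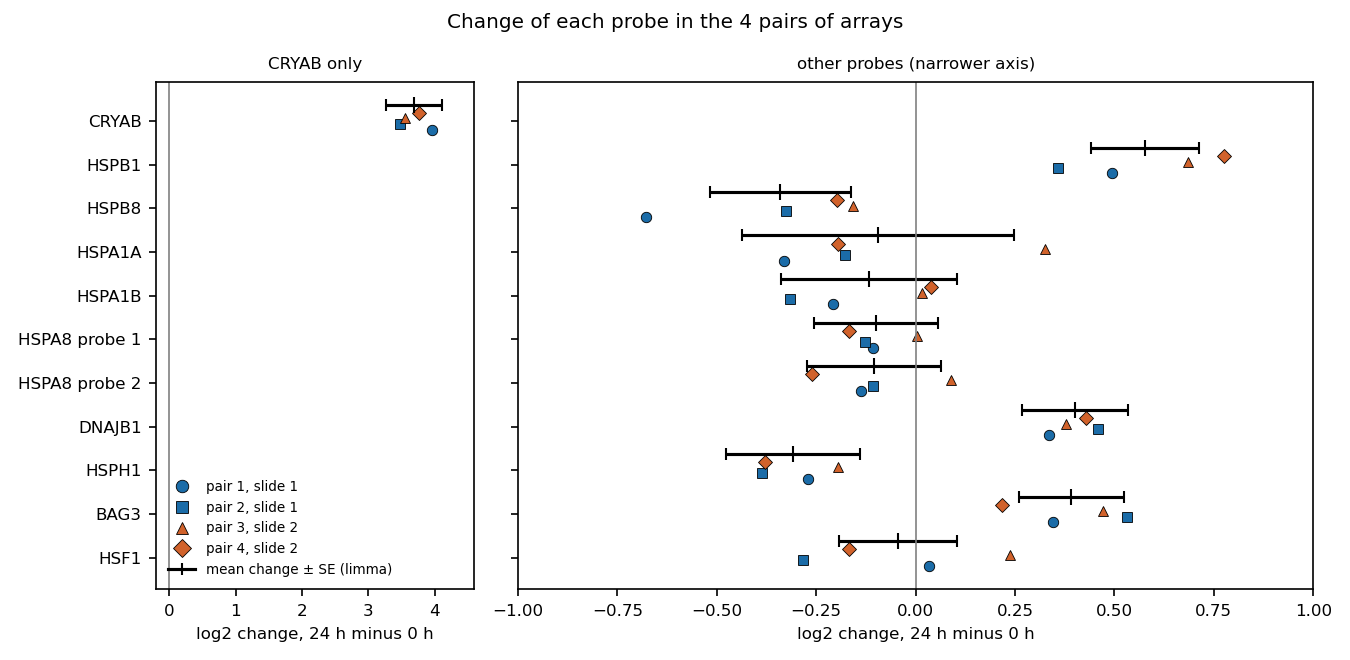
For each probe the log2 change from 0 h to 24 h is shown in the 4 array pairs, blue on slide 1 and orange on slide 2, with the mean and its SE from limma as a black bar above. CRYAB has an axis of its own, from 3.47 to 3.96, and the other probes lie between -0.68 and 0.77.

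The inducible HSP70 genes, whose products refold proteins and are the classical output of HSF1, did not separate by time. HSPA1A read log2 14.15, 14.25, 12.76 and 13.37 at 0 h and 13.82, 14.08, 13.09 and 13.17 at 24 h. HSPA1B read 13.99, 14.09, 13.24 and 13.35 at 0 h and 13.78, 13.77, 13.26 and 13.39 at 24 h. For both genes the 24 h values lay within the range of the 0 h values. The differences were -0.09 ± 0.34 for HSPA1A and -0.12 ± 0.22 for HSPA1B. These genes are near-identical copies and may share signal on a probe, so the 2 probes are not independent readings.

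HSPA8 (HSC70), the HSP70 that cells make without stress, has 2 probes. They read log2 14.83 ± 0.23 and 14.99 ± 0.27 at 0 h, and 14.73 ± 0.18 and 14.88 ± 0.21 at 24 h (SD, n = 4 arrays each). The differences of -0.10 ± 0.15 and -0.10 ± 0.17 (SE) were alike on the 2 probes and smaller than these errors. With the pair as a block the SEs were 0.094 and 0.102, about the size of the differences. HSF1, the transcription factor itself, read 9.44 ± 0.19 at 0 h and 9.39 ± 0.19 at 24 h, a difference of -0.04 ± 0.15. It was higher at 24 h in 2 of 4 pairs and lower in the other 2. Transcript level does not report HSF1 activity, which is set mainly by release from chaperones, trimer formation and modification of the protein.

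Of the HSP70 cochaperones, DNAJB1 and BAG3 had higher estimates at 24 h and HSPH1 a lower one, and the difference between them was not tested. DNAJB1 (HSP40), the J-domain protein that stimulates HSP70, read log2 11.72, 11.79, 11.52 and 11.52 at 0 h and 12.06, 12.25, 11.90 and 11.95 at 24 h. All 24 h arrays were above all 0 h arrays, the difference was 0.40 ± 0.13 (SE), and the pairs spanned 0.34 to 0.46. BAG3, which releases nucleotide from HSP70 and links it to small heat shock proteins, read 12.76, 12.57, 12.40 and 12.77 at 0 h and 13.11, 13.10, 12.87 and 12.98 at 24 h. Its groups did not overlap under quantile normalization, with a difference of 0.39 ± 0.13. HSPH1 (HSP110), an exchange factor that works with HSP70 and J-domain proteins on aggregates, read 13.49, 13.75, 13.13 and 13.31 at 0 h and 13.22, 13.37, 12.94 and 12.93 at 24 h. Here the groups overlapped, all 4 pairs were lower at 24 h, and the difference was -0.31 ± 0.17.

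So, beside the 12.9-fold difference of CRYAB, the estimates of the other 9 genes ran from 1.49-fold higher (HSPB1) to 1.27-fold lower (HSPB8), with 6 of the 10 genes lower at 24 h. The median over the 10 genes was -0.07, beside -0.01 over all 10964 tested genes. Intensities of CRYAB rested on 24 to 37 beads per array, and the other probes on 17 to 60, with a bead standard error of 11.6% to 39.3% of the mean.

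Letters of heat shock elements were looked for in the members' promoters. The shorter motifs searched hold only 2 units of the element, and binding of HSF1 was not measured. A match is therefore not shown to be a site of HSF1, and bases outside the windows were not searched. RefSeq promoters of GRCh38.p14, from 250 bases before to 50 after a gene's start, were searched for 8 of the 10 genes. They gave 10 windows, DNAJB1 having 3. CRYAB had no entry in the sequence table used here, and HSF1 was left out of the search, so neither has a sequence shown. The motif GAANNTTC, which reads the same on both strands, was found for 6 of the 8 genes and in 6.77% of all 35116 promoters in the table. The first count is by gene and the share is by promoter, and a gene with several windows has more chances of a match. The counts by gene leave HSF1 out, while the shares take in all promoters in the table, so the rules differ. The motif TTCNNGAA, also its own reverse complement, was found for 1 of the 8 and in 7.74% of all. A longer heat shock element, in which the letters of GAANNTTC are followed by any pair of bases and a further GAA unit, holds both shorter motifs. Searched on both strands, it was found for HSPA8, at 2 places, and in 0.49% of all promoters. The glucocorticoid response element, a palindrome with GNACA on one side of any 3 bases, was found for 0 of the 8 and in 0.39% of all.

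The windows below belong to HSPB1 at chr7:76302423-76302722 (plus strand), HSPA1A at chr6:31815293-31815592 (plus strand), HSPA1B at chr6:31827488-31827787 (plus strand), HSPA8 at chr11:123062087-123062386 (minus strand) and DNAJB1 at chr19:14518348-14518647 (minus strand). They were chosen because HSPB1 and DNAJB1 had separate groups at the 2 times, also with median scaling, and HSPA1A, HSPA1B and HSPA8 did not. The DNAJB1 window shown is the one with 2 matches of GAANNTTC, and its other windows held 1 and 0. Capitals mark the heat shock motifs, and the strand is that of the gene.
HSPB1: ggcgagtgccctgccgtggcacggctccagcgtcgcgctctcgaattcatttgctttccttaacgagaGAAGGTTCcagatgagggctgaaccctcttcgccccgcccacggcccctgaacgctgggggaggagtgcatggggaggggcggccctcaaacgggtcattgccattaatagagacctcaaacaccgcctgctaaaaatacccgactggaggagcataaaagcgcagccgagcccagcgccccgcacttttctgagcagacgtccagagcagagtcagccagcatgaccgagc
DNAJB1: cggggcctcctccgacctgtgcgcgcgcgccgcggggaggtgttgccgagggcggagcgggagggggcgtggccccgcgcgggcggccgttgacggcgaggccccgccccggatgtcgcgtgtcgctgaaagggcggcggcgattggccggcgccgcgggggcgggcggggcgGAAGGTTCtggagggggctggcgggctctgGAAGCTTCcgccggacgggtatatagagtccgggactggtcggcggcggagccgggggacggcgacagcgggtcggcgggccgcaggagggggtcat
HSPA1A: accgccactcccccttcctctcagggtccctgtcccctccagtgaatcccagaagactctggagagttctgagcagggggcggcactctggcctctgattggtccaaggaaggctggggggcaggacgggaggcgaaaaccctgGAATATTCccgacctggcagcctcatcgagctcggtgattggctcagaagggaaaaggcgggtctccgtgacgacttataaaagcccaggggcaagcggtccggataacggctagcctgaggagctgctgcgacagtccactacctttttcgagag
HSPA1B: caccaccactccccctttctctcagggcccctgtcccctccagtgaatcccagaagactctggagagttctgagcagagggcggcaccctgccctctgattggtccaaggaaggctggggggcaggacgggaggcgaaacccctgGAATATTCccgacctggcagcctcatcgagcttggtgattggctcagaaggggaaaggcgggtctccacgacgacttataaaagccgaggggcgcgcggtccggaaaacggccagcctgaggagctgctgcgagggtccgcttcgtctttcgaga
HSPA8: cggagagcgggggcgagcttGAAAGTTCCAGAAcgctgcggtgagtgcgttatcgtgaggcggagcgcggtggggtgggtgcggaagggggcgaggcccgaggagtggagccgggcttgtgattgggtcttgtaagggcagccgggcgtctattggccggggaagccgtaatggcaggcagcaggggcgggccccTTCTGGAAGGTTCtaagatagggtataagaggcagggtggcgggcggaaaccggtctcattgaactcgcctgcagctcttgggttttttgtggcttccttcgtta
The HSPA1A and HSPA1B windows matched at 277 of 301 aligned positions (92%). HSPB8 also held GAANNTTC, and the windows of HSPH1 and BAG3 held none of the motifs. Genes with a match stood among those with separate groups (HSPB1 and DNAJB1) and among those whose groups overlapped (HSPA1A, HSPA1B, HSPA8 and HSPB8). BAG3, separate under quantile normalization but not with median scaling, had no match in this window. The genes were chosen with the time comparison known, so nothing about the motifs is read from this listing.

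The difference between the slides is orthogonal to the time comparison and was tested over all probes with time as a covariate. HSPA1A was lower on slide 2 by a log2 difference of -0.98 ± 0.15 (SE), and HSPA1B by -0.60 ± 0.11 (limma adjusted p = 0.0278 and 0.0353). For HSPA1A the slide 1 arrays lay between 13.82 and 14.25 and the slide 2 arrays between 12.76 and 13.37. For HSPA1B they lay between 13.77 and 14.09 and between 13.24 and 13.39. For neither gene did the slides overlap. These 2 of 11 probes were called lower, beside 1.62% of all tested probes called lower, 1.23% higher and 2.85% in either direction. Since the 2 genes may share signal on a probe, these are not 2 independent calls. Lower on slide 2 without overlap were 3 of 11, HSPA1A, HSPA1B and HSPA8 probe 2, beside 6.97% of all.

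That fit takes the 4 arrays of a slide as independent, but each slide holds 2 replicate numbers, whose arrays deviate together. With the replicate number as a random block (duplicateCorrelation, correlation 0.25), an alternative chosen after the data were seen, the SEs grew to 0.18 and 0.13 and neither gene passed (limma adjusted p = 0.0691 and 0.101). No probe of the 10 genes passed there, with 4 at an unadjusted p under 0.05, beside 0.227% of all tested probes called. On leaving out 1 array at a time the differences stayed of similar size, from -1.07 to -0.83 for HSPA1A and from -0.65 to -0.55 for HSPA1B. The calls were kept in 2 of 8 such fits (limma adjusted p = 0.0392 to 0.0874) and in 0 of 8 (0.0554 to 0.115), each with fewer arrays. The slides also differed in brightness, with median intensity 137 to 201 on slide 1 and 205 to 273 on slide 2. Before normalization HSPA1A read 10309.5 to 17103 on slide 1 and 9194 to 12371 on slide 2, so the intensities themselves overlapped between the slides. HSPA1B read 8981 to 15426 on slide 1 and 10797 to 13690 on slide 2, with means of 12046 and 12459, so its unnormalized mean was higher on slide 2, opposite to the normalized difference. The part of brightness in the difference was not tested. Since slide 2 also holds other replicates, slide and culture cannot be told apart.

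Of the other members, none passed in either fit, and 9 of 11 probes had a lower estimate on slide 2, with a median of -0.23 beside -0.01 over all tested probes. Among them were HSPA8 (-0.29 ± 0.12 and -0.37 ± 0.11), HSPH1 (-0.38 ± 0.11) and DNAJB1 (-0.23 ± 0.10), with limma adjusted p from 0.0856 to 0.189 without the block. CRYAB and HSPB8 had the opposite sign, at 0.28 ± 0.44 and 0.05 ± 0.18. The change with time was also compared between the slides. Limma called 0 of 14533 probes there, with 1122 at an unadjusted p under 0.05, and adjusted p for the 11 probes ran from 0.764 to 0.998. CRYAB changed by 3.72 on slide 1 and 3.66 on slide 2.

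**Figure D3:**
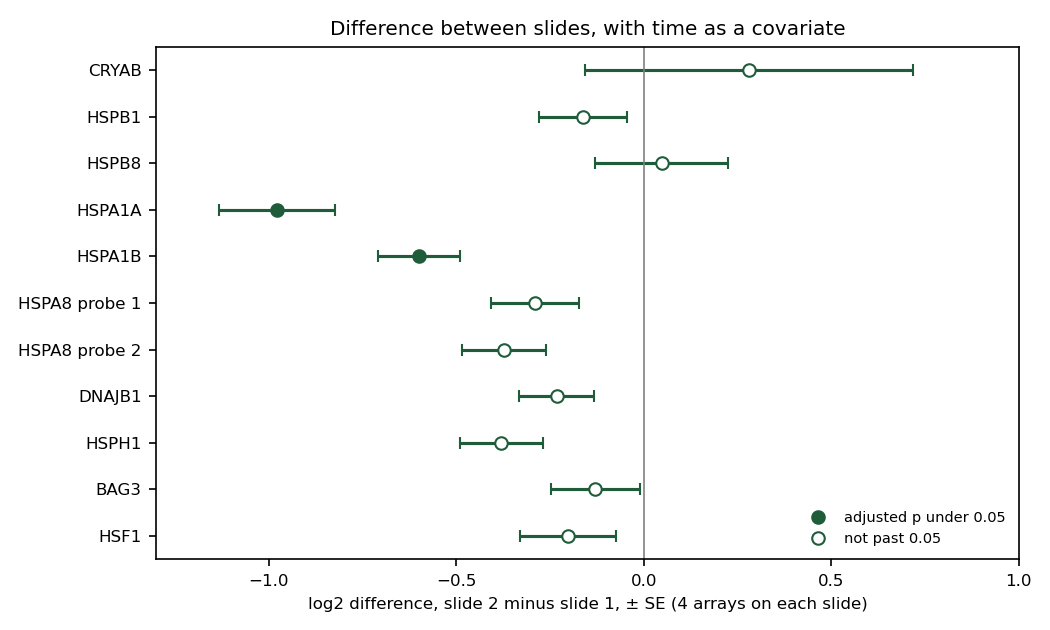
The log2 difference between slide 2 and slide 1 is shown for each probe with its SE, from a limma fit with time as a covariate, 4 arrays on each slide and no replicate block. Filled points passed an adjusted p of 0.05 in that fit, HSPA1A at -0.98 and HSPA1B at -0.60, and neither passed with the replicate as a random block.

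Other chaperone genes were then asked for, with p adjusted over all tested probes. Of 69 genes in 7 lists, 54 were tested, and none was higher and 3 were lower at 24 h (5.56% of the 54, beside 4.72% of all tested genes called higher, 5.34% lower and 10.1% in either direction). At an unadjusted p under 0.05 there were 7. A lower estimate was found for 36 of the 54 (66.7%, beside 51.2% of all tested genes), and their median was -0.07. With the replicate block 6 were lower and none higher, beside 8.98% of all genes called lower. With the slide as a block 5 were lower, beside 7.14%.

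HSPA14, an HSP70 relative that works at the ribosome, read log2 11.75, 11.60, 11.58 and 11.80 at 0 h and 11.08, 11.25, 10.73 and 11.01 at 24 h. Its groups did not overlap and it fell by 0.66 ± 0.14 (SE) (limma adjusted p = 0.0139), a call kept on leaving out any 1 of the 8 arrays (adjusted p = 0.0137 to 0.0429). SQSTM1 (p62), the autophagy receptor that carries ubiquitinated cargo, read 13.66, 13.60, 13.80 and 13.93 at 0 h and 13.14, 12.62, 13.24 and 13.36 at 24 h. It fell by 0.66 ± 0.17 (limma adjusted p = 0.0372), again with no overlap. That call was kept in 1 of the 8 fits that leave out an array (adjusted p = 0.0388 to 0.0837), the one without 24 h replicate 4, and the call of HSP90AB1, the HSP90 made without stress, in 2 (adjusted p = 0.0283 to 0.12), those without 0 h replicate 1 or 24 h replicate 2. Over these fits the differences stayed between -0.75 and -0.51 for SQSTM1 and between -0.57 and -0.45 for HSP90AB1. HSP90AB1 read 13.92, 14.06, 14.13 and 14.20 at 0 h and 13.58, 13.81, 13.43 and 13.50 at 24 h, without overlap, and fell by 0.50 ± 0.13 (limma adjusted p = 0.0389).

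By list, 1 of 15 other HSF1 targets was called lower (HSP90AB1) and 0 higher, with a lower estimate for 12 of 15 and a median of -0.23. That list holds HSP90, HSP60 and HSP70 relatives and their partners, and the largest difference in it that did not pass was that of CACYBP, a calcyclin-binding partner of HSP90, at -0.41 ± 0.16. Of 7 other HSP70 genes, 1 was lower (HSPA14), with HSPA12A, a distant HSP70 relative, at -0.57 ± 0.16 (limma adjusted p = 0.0518, and 0.0188 with the replicate block). Of 7 BAG, exchange and degradation cochaperones, 1 was lower (SQSTM1), and BAG6, which handles misplaced membrane proteins, differed by 0.23 ± 0.16. Of 15 other J-domain genes, 7 chaperonin TRiC subunits and 3 heat shock factors and inhibitors, limma called none, with 1, 0 and 0 at an unadjusted p under 0.05. With the replicate block DNAJA1, a J-domain partner of HSP70 that is in 2 of the lists, was lower at -0.40 ± 0.10 (limma adjusted p = 0.0321). The largest differences in these 3 lists were DNAJC2, which acts at the ribosome, at -0.55 ± 0.28, CCT2 at -0.30 ± 0.16 and HSF4, the heat shock factor of the lens, at 0.44 ± 0.23, and none of them passed.

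**Figure D4:**
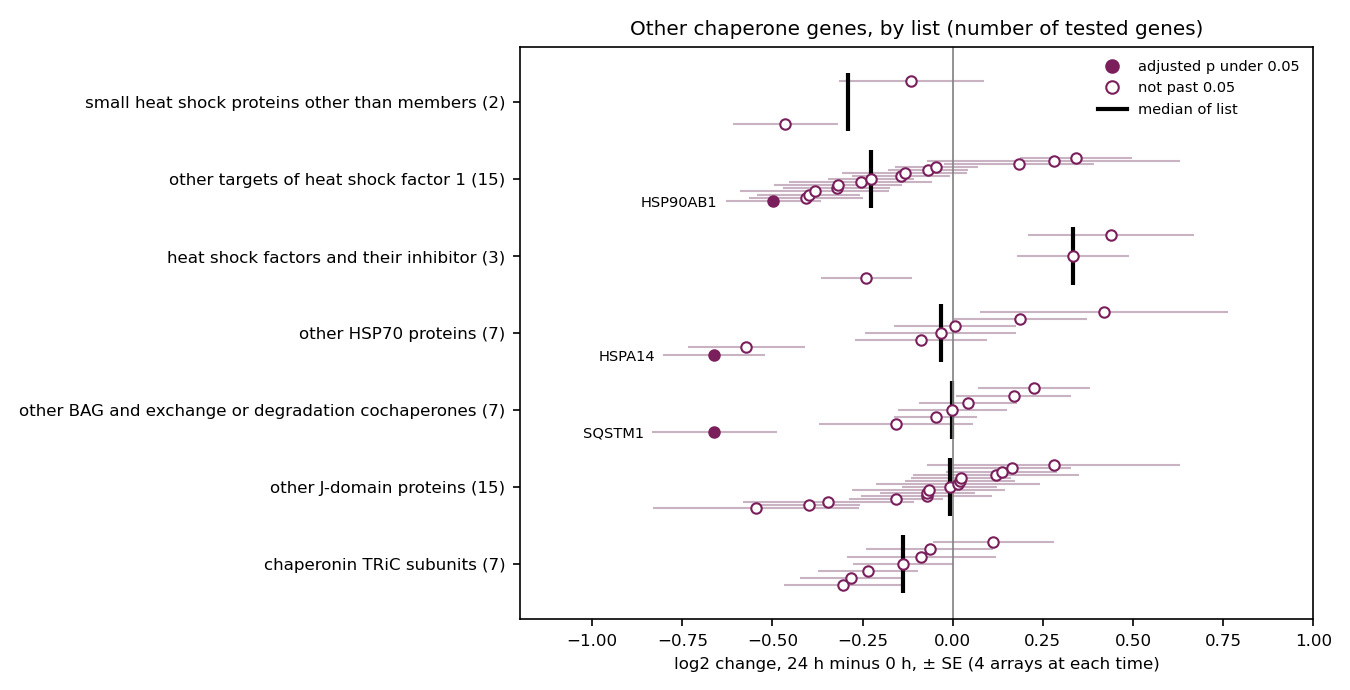
Log2 change from 0 h to 24 h with its SE for each tested gene of 7 chaperone lists, 1 probe per gene, with the list median as a black bar. The 3 filled points passed an adjusted p of 0.05 and all lie below 0: HSP90AB1, HSPA14 and SQSTM1.

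The genes with the profile most like that of CRYAB over the 8 arrays are given as a description. Nearness was measured as the root mean square distance between log2 profiles, each centred on its mean, over the tested probes. The nearest were ALOX5AP, needed for leukotriene synthesis, at 0.49, CIDEC, a lipid droplet protein, at 0.56, and MAOA, which oxidises monoamines, at 0.57. LBP, which binds bacterial lipopolysaccharide, followed at 0.59 and TSC22D3, a leucine zipper protein that glucocorticoids induce, at 0.64. The distances of the other 9 genes to CRYAB ran from 1.68 (HSPB1) to 2.19 (HSPB8). LBP went from 5.35 ± 0.24 to 8.39 ± 0.73 (SD, n = 4 each). ALOX5AP, CIDEC, MAOA and LBP were, like CRYAB, highest in replicate 3 at both times, and TSC22D3 was not. The distance that picked them takes in the replicates of CRYAB, so this likeness is partly fixed by the choice. The measure depends on the size of the change for which CRYAB was picked, so the smaller changes of the other 9 genes place them far from it by construction.

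**Figure D5:**
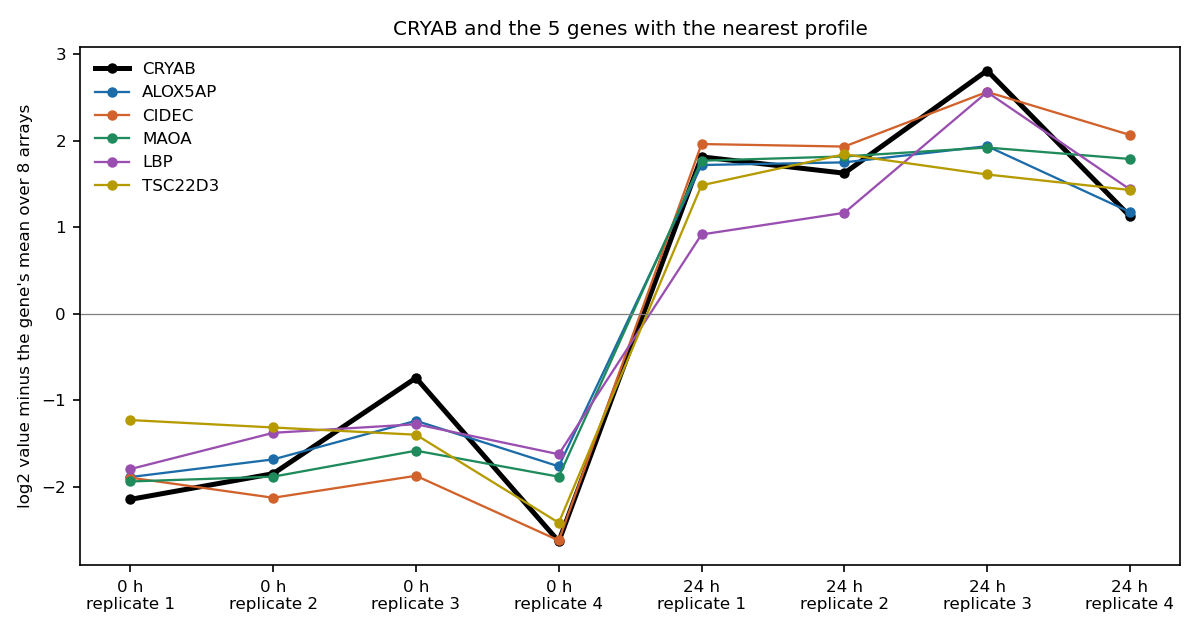
Log2 values minus each gene's mean over the 8 arrays are plotted for CRYAB (black) and the 5 genes with the nearest profile. All 6 profiles step up between 0 h and 24 h, and replicates have no order, so lines between them only guide the eye.

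CRYAB is also a muscle gene, and markers of other cell types were read beside it. Of the 8 markers of A549 and epithelial cells, 4 were called higher (limma adjusted p = 0.00745 to 0.0395), beside 4.72% of all tested genes. On the log2 scale the keratins KRT8 and KRT18 rose by 0.92 ± 0.19 and 0.69 ± 0.18. The adhesion protein CDH1 rose by 1.09 ± 0.24 and the urea cycle enzyme CPS1 by 1.06 ± 0.20. A lower estimate was found for 2 of the 8, the keratin KRT19 at -0.46 ± 0.27 (limma adjusted p = 0.365) and AKR1B10 at -0.05 ± 0.12. The median over the 8 was 0.62. Of 7 muscle markers, 6 are on the array and 1 was tested. MYL2, a myosin light chain, was not detected at 0 h, was detected on all 4 arrays at 24 h, and lay at least 2.12-fold higher there. It was tested only because the 24 h arrays detected it, so no p is given. ACTC1 and CKM were detected on 0 of 8 arrays, and DES, MYH7 and MYOG on 1, 2 and 1. Summed over the 6 muscle markers on the array, detected or not, the signal ran from log2 7.51 to 7.78 at 0 h and from 7.88 to 8.37 at 24 h. That sum takes in the background signal of undetected probes, so it does not measure an amount of muscle cells. Of 6 fibroblast markers 2 were tested. DCN, likewise detected only at 24 h, lay at least 2.98-fold higher there. COL1A1 differed by -1.22 ± 0.32 (limma adjusted p = 0.0385), though its groups overlapped. COL1A2, COL3A1 and PDGFRB were detected on 0 arrays. The sum over the 6 fibroblast markers, likewise with background in it, ran from 7.84 to 8.88 at 0 h and from 8.11 to 8.84 at 24 h. Limma called none of the 3 tested leukocyte and endothelial markers, with 1 at an unadjusted p under 0.05. The part of any such cells in the CRYAB values was not tested.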

How the data were processed

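Per the file headers, the authors deposited for each probe and array a mean bead intensity that was not normalized, its standard error, a bead number and a detection p-value. The authors' deposited normalized table holds log2 values for 22011 of its 25204 rows. The submitters' processing notes name limma, and no steps. Intensities were background-corrected with nec of limma 3.58.1 (R 4.3.3), which estimates background through the detection p-values (offset 16). The 22011 probes were then quantile normalized and log2 transformed. Probes with a detection p-value under 0.05 on at least 4 of 8 arrays were tested (14533 probes, 10964 genes by the brightest probe) with lmFit and eBayes, two-sided, with Benjamini-Hochberg adjustment over all of them and a threshold of 0.05. The number of arrays limits the precision.

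A gene detected on no array of a time has only a bound there, and its fold is given as "at least". The dim side of that fold is, on each array, the probe's own signal or the lowest signal detected there, whichever is greater, averaged over arrays. Symbols come from the platform annotation, where 19759 probes have 1 symbol and 2252 none, updated through Entrez identifiers in a RefSeq table for 19741 of them. Of the genes listed, 9 of the 69 chaperone genes have no probe under their symbol. The members, the lists and the tests were chosen with earlier results of these data known. The rule for named genes takes all 10 members, up to 4 called genes of each list and its largest change that did not pass, the genes within 2 places of CRYAB, the 5 nearest profiles, EHMT1 and NR3C1. NR3C1, the glucocorticoid receptor, differed by -0.06 on its brightest probe (limma adjusted p = 0.877). Arrays with the same replicate number deviated together from their group means (r = 0.463, 0.454, 0.367 and 0.454 across 14533 probes, which are not independent), so the numbers were taken to pair the arrays. The fits were tested on simulated data, where changes of 0.5, 1 and 2 log2 units were recovered for 11.1%, 71.4% and 94% of simulated probes in the time comparison, 8.2%, 62.1% and 91.8% between slides without the block, and 0%, 0% and 31.9% in the comparison of slides' changes. Alternatives were other background corrections, offsets, scalings and filters, the authors' table, blocks, single slides and leaving out each array.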

Additional observations from a re-analysis of the deposited data

How the results depend on the processing

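The signs of the CRYAB, HSPB1, HSPB8, HSPH1, HSPA8, DNAJB1 and BAG3 differences were the same under every alternative run. HSPA1A, HSPA1B and HSF1, whose differences were smaller than their errors without a block, changed sign in some. With the replicate block the SE of HSPA1B was 0.107, about the size of its difference of -0.117. CRYAB ran from 2.42 without background correction to 4.05, and could not be tested where detection on all 8 arrays was required. With the replicate number as a block, 1209 probes were called higher and 1223 lower (710 and 713 without it), 4 member probes passed and 6 listed chaperone genes were lower. With the slide as a block, 5 of these were lower. Within slide 1, 318 probes were called higher and 302 lower, and within slide 2 286 and 237. Member probes past the threshold there were 1 and 0, and listed genes called lower 0 and 0. Member probes lower without overlap were 5 and 1, with only 2 arrays at each time on a slide. No share of all probes is given for the counts without overlap in this section, so nothing is read from them. Past the threshold were 4 member probes without background correction, beside 811 of all tested probes called higher and 812 lower. With detection on all 8 arrays it was 1, beside 651 and 702. Between the slides 414 probes were called, 933 without background correction, 688 with an offset of 50 and 33 with a random replicate block (chosen after seeing the data), where HSPA1A and HSPA1B did not pass.

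Leaving out 1 array at a time gave 478 to 661 probes higher and 495 to 655 lower, 1 to 2 member probes past the threshold, 0 to 1 lower without overlap and 1 to 4 listed genes lower. The member count was 1 without 24 h replicate 1, 3 or 4 or 0 h replicate 3, and 1 member probe was lower without overlap when 24 h replicate 4 was left out. The listed genes were 1 without 24 h replicate 1, 0 h replicate 2, 0 h replicate 3 or 24 h replicate 3. The slide count ran from 10 to 347, with 20, 13, 27 and 148 without 0 h replicates 1 to 4, and 11, 37, 347 and 10 without 24 h replicates 1 to 4. Each such fit has fewer arrays, and other causes were not tested. With median scaling HSP90AB1, SQSTM1 and the slide difference of HSPA1B did not pass (limma adjusted p = 0.0634, 0.0706 and 0.0689), at log2 differences of -0.49, -0.68 and -0.48. A lower estimate held for 35 to 39 of the 54 listed genes over the scalings. The replicate block turned no call of a named list gene into a miss.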
